A study of Livoneca redmanii with 3 samples.

Results

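RNA splicing factors, other RNA-binding proteins and Y-box proteins were followed through 3 RNA sequencing libraries of the fish-parasitic isopod Livoneca redmanii. Each library came from whole animals taken from tilapia hosts. The low-salinity animals were brought gradually from 35 to 8 PSU, the low-temperature animals were brought from 26 to 10 °C, and 35 PSU with 26 °C was the control condition. Temperature in low salinity, salinity in low temperature, and strain, sex and age are not given in the labels. Each condition had 1 library, so differences have no replicate check. Intervals describe counting error alone. The labels do not say whether a library pooled several animals.

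The members were assembled contigs (transcript sequences put together from the reads, with names beginning TRINITY_DN) chosen by their deposited annotation. A contig was taken when its gene name began with YBX, SRSF, HNRNP, SNRP, SF3, DDX or PRPF, or when its description spoke of splicing, ribonucleoproteins, a cold shock domain or an RNA recognition motif. Descriptions of ribosomal proteins, translation initiation, reverse transcriptase or ribonuclease H were left out. This was applied to each listed description and not to the whole contig. The DDX11 contigs TRINITY_DN4288_c0_g1_i3 and TRINITY_DN4288_c0_g1_i5 therefore stayed in, although each also has a ribonuclease H description. This gave 174 of the 31922 contigs in the count table, from 126 assembled genes. Names chose 91 of them and description text alone the other 83. The rule itself uses annotation and no counts, but it was written with earlier results of these data known.

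Splicing removes introns from precursor mRNA and is carried out by the spliceosome, a set of small nuclear ribonucleoproteins (snRNPs) that assemble anew on every intron. SR proteins and heterogeneous nuclear ribonucleoproteins (hnRNPs) bind the transcript and steer the choice of splice sites. DEAD-box proteins, which carry DDX names, are ATP-driven enzymes that remodel RNA and RNA-protein complexes in splicing, export, translation and ribosome assembly. Y-box proteins hold a cold shock domain that is related to the cold shock proteins of bacteria, and in animals they package mRNA in the cytoplasm and regulate its translation.

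The low-salinity library summed to 1434390 counts, the low-temperature library to 2782324 and the control library to 2142836. Contigs with mobile-element text (reverse transcriptases, integrases, transposases and the like) took 54.7% of counts in low salinity, 4.63% in low temperature and 47.8% in control. Annotated contigs without such text took 10.7%, 16.4% and 11.5% in the same order. No contig carried any of the vertebrate blood and liver gene names that were searched as signs of host tissue. Contigs named ACTB or ACTG, the cytoplasmic actins, summed to 227 counts in low salinity, 16054 in low temperature and 488 in control. The part that library makeup played in the results below was not tested.

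Nearly all counts of the members lay in the low-temperature library. The 174 contigs summed to 89 counts in low salinity, 11069 in low temperature and 126 in control. Their share of the library was 0.00620% in low salinity (exact binomial 95% interval 0.00498% to 0.00764%), 0.398% in low temperature (0.390% to 0.405%) and 0.00588% in control (0.00490% to 0.00700%). The shares of low salinity and control overlap within counting error, and the low-temperature share lies far outside both. A count was recorded for 9 members in low salinity, 173 in low temperature and 15 in control. In low temperature the members' counts ran from 0 to 693 with a median of 37, while the median was 0 in both other libraries. With 1 library of whole animals per condition, fewer cells and less RNA per cell cannot be told apart.

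**Figure D1:**
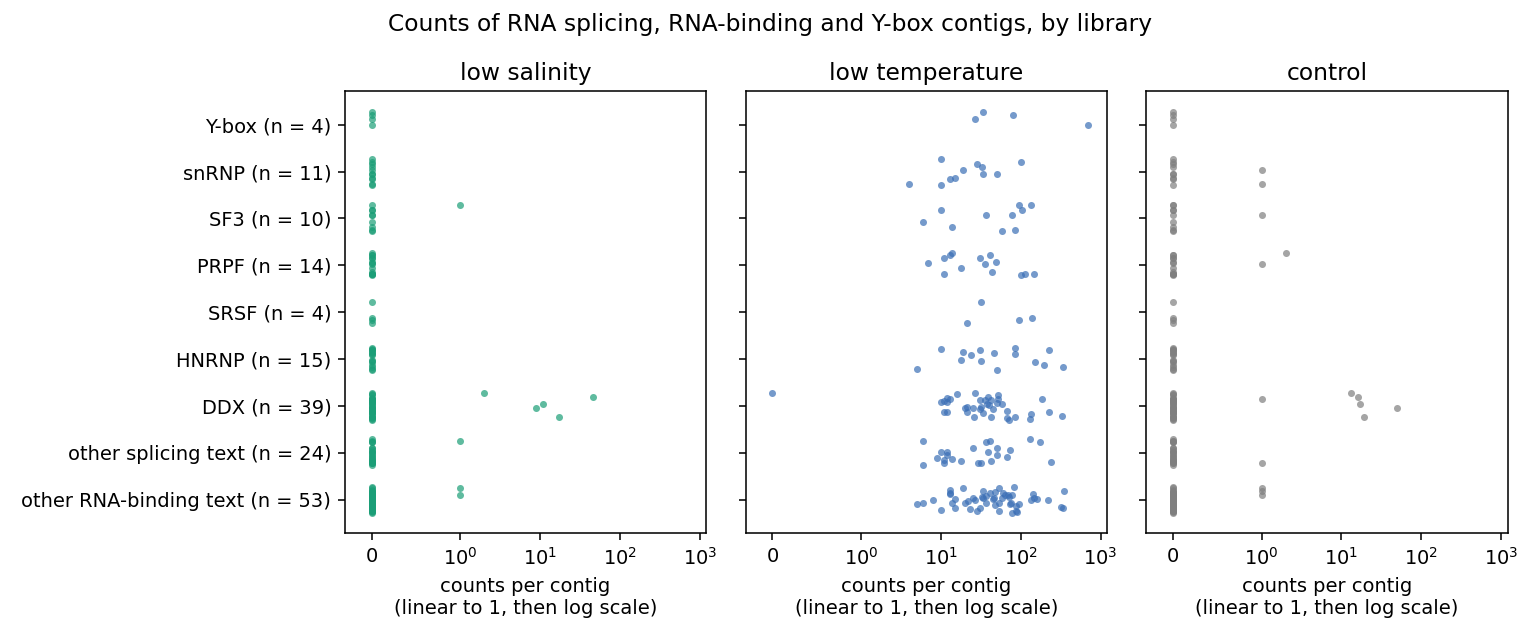
Counts of each of the 174 member contigs in the low-salinity, low-temperature and control libraries, grouped by role (rows); each point is 1 contig, and the horizontal axis is linear up to 1 count and logarithmic above. In low salinity and control the points sit at 0 except for 9 and 15 contigs, and the only contigs above 2 counts there are in the DDX row.

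Absence from both low salinity and control was also common outside the group. Of the 174 members, 156 (89.7%) had counts only in low temperature. Among the 5492 other annotated contigs without mobile-element text, 4341 (79.0%) did so, and among the 1002 contigs with mobile-element text 14 did so (1.40%). Over all 31922 contigs the share was 40.8%. The difference between the members and the other annotated contigs was not tested, since contigs of 1 library are not replicates.

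Y-box proteins gave the contig with the most counts among the members. All 4 Y-box contigs were named YBX2, a name that in mammals belongs to a germ-cell mRNA-packaging protein, and all came from 1 assembled gene. The most counted, TRINITY_DN203_c0_g1_i1, had 0 counts in low salinity, 693 in low temperature and 0 in control, with an exact Poisson 95% interval of 642.4 to 746.6 around the 693. The other contigs with the name had 80, 34 and 27 counts in low temperature and were at 0 in both other libraries. Against a floor of 3 counts in the control library, this contig was 686.8-fold higher in low temperature than in control under TMM scaling. That bound leaves out counting error in the 693, and the exact 95% lower limit of the ratio was 557.1-fold. TMM is a trimmed-mean scaling that takes most contigs as unchanged. Here 92.5% of all tested contigs differed at least 2-fold between low temperature and control, so that assumption is not met. The bound against the floor was 177.9-fold with scaling by total counts and 124.4-fold with upper-quartile scaling. This YBX2 contig ranked at 81 by low-temperature counts among the 3056 tested annotated contigs without mobile-element text, a rank that depends on contig length, which was not used here.

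The assembled gene behind YBX2 held 13 contigs, of which 9 carried no annotation and were therefore not members. Over all 13 it had 0 counts in low salinity, 1236 in low temperature and 1 in control. Under TMM scaling the low-temperature to control ratio was 3675, with an exact 95% interval from 658.4 to 145271. Scaling by total counts shifts the log2 ratios of this comparison by -1.95, and upper-quartile scaling shifts them by -2.47. The unannotated contigs followed the annotated ones, with 1 control count among them. The contig with 693 counts held 56.1% of the gene's low-temperature counts (53.2% to 58.9%). Reads that match several contigs of 1 gene are divided by estimation, so the split between contigs is less certain than the gene's sum.

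The core snRNP proteins were also counted almost only in low temperature. The 11 snRNP contigs summed to 0 counts in low salinity, 318 in low temperature and 2 in control. The Sm names SNRPB, SNRPD1, SNRPD2 and SNRPD3, whose proteins form part of the ring around the snRNA, summed to 0, 184 and 0 counts in the order low salinity, low temperature and control. SNRPB (TRINITY_DN40555_c0_g1_i1) had 0, 102 and 0 counts, and SNRPD3 (TRINITY_DN8092_c0_g1_i1) had 0, 34 and 0. The U1 proteins SNRPA, SNRPC and SNRNP70, which belong to the particle that recognises the 5′ splice site, had 0, 77 and 1 counts together, with SNRPA (TRINITY_DN53257_c0_g1_i1) at 50 in low temperature. SNRNP25 and ZMAT5, proteins of the minor spliceosome that removes a rare class of introns, had 0, 92 and 1.

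The SF3 factors, which bind with the U2 snRNP at the branch point, were represented by all 3 SF3A names and 4 SF3B names. The SF3A contigs summed to 0 counts in low salinity, 250 in low temperature and 1 in control. The SF3B contigs summed to 1, 372 and 0. SF3A1 (TRINITY_DN19946_c0_g1_i1) had 135 counts in low temperature and 0 in both others. SF3B2 (TRINITY_DN62898_c0_g1_i1) had 104 in low temperature and 0 in both others, and SF3B1 (TRINITY_DN8237_c0_g1_i1), the largest subunit, had 1, 95 and 0 in low salinity, low temperature and control. SF1, U2AF2 and PUF60, which mark the branch point and the 3′ splice site, summed to 0, 284 and 1, led by U2AF2 (TRINITY_DN20507_c0_g1_i2) with 176 in low temperature.

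Factors of the later spliceosome followed the same pattern. The U5 proteins PRPF8, EFTUD2 and SNRNP200, which form and drive the catalytic centre, summed to 0 counts in low salinity, 216 in low temperature and 0 in control. PRPF8 (TRINITY_DN21449_c0_g1_i1), the scaffold of the active site, had 101 of these. PRPF3, PRPF4, PRPF6 and PRPF31, of the U4/U6 and tri-snRNP particles, summed to 0, 216 and 1, with PRPF6 (TRINITY_DN53760_c0_g1_i1) at 112 in low temperature. CDC5L, ISY1, SLU7, CWC22, CWC25 and PRPF19, which act around the catalytic steps, summed to 0, 151 and 0 over 7 contigs.

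All 4 SRSF and all 15 HNRNP member contigs were at 0 in both low salinity and control. So were 79.2% of the other annotated contigs without mobile-element text and 41.0% of all contigs. The SRSF contigs summed to 288 counts in low temperature, of which SRSF7 (TRINITY_DN1699_c0_g1_i2) had 140, SRSF6 (TRINITY_DN11012_c0_g1_i2) had 95, and TRINITY_DN7843_c0_g1_i1, from a second SRSF6 gene with 53 counts over 2 contigs, had 32. The HNRNP contigs summed to 1323. HNRNPA2B1 (TRINITY_DN189_c0_g1_i3), an hnRNP that binds RNA through RNA recognition motifs, had 340 (304.8 to 378.1), HNRNPK (TRINITY_DN19373_c0_g1_i6), which binds through KH domains, had 227, and HNRNPU (TRINITY_DN40941_c0_g1_i2), a scaffold-associated hnRNP, had 197. A count of 0 in a library allows up to 3 counts, or 0.000209% of the low-salinity library and 0.00014% of the control library. For HNRNPA2B1 the 2 counts in low salinity were on an unannotated contig of the same gene, which had 2, 598 and 0 counts in low salinity, low temperature and control over its 6 contigs. The HNRNPH1 gene TRINITY_DN1971_c0_g1 had 1, 120 and 0 over its 2 contigs, and its low-salinity count was also on a contig outside the rule.

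Among members taken by text, TARDBP had the most counts of any name. TARDBP, the RNA-binding protein TDP-43, was the name of 13 contigs in 3 assembled genes, with 0 counts in low salinity, 1328 in low temperature (1258 to 1401) and 1 in control. Its most counted contigs were TRINITY_DN274_c0_g1_i5 with 0, 351 and 1 counts and TRINITY_DN274_c1_g1_i5 with 0, 321 and 0. PTBP2, a polypyrimidine tract-binding regulator of exon choice, had 0, 262 and 0 over 4 contigs. Sxl, named after the Drosophila splicing switch of sex determination, had 75 counts in low temperature over 2 contigs and 0 in both others. A gene with an RNA recognition motif and no name (TRINITY_DN243_c0_g1) had 0, 556 and 0 over 3 contigs, led by TRINITY_DN243_c0_g1_i1 with 337.

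**Figure D2:**
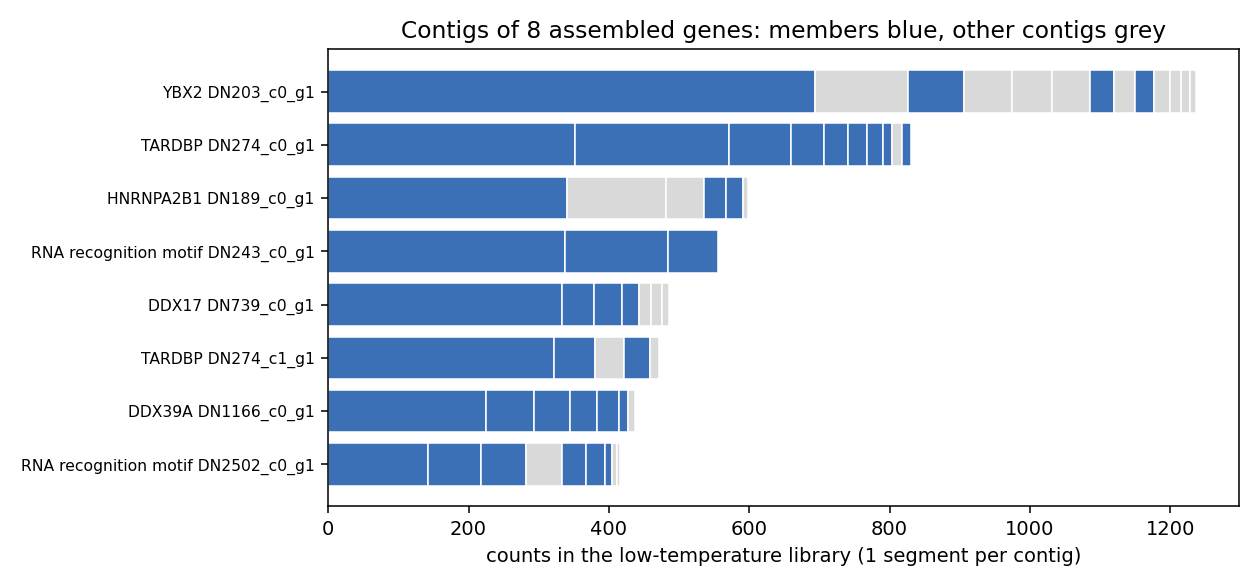
Low-temperature counts of the 8 assembled genes with the most member counts, chosen after the values were seen; each bar is 1 gene, each segment 1 contig, blue segments are members and grey segments are contigs of the same gene outside the rule. The YBX2 gene reaches 1236 counts with a first segment of 693, while the TARDBP gene DN274_c0_g1 is split over 10 contigs and its first segment holds 351 of 831 counts.

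The 8 assembled genes with the most member counts differed in how their counts were divided. In low temperature the leading contig held 68.7% of the DDX17 gene TRINITY_DN739_c0_g1 (exact binomial 95% interval 64.3% to 72.8%) and 68.0% of the TARDBP gene TRINITY_DN274_c1_g1 (63.6% to 72.2%). It held 42.2% of the TARDBP gene TRINITY_DN274_c0_g1 (38.9% to 45.7%) and 34.1% of the RNA recognition motif gene TRINITY_DN2502_c0_g1 (29.6% to 38.9%). The 8 genes together had 2 counts in low salinity, 5031 in low temperature and 2 in control over 60 contigs, 38 of them members. Apart from TRINITY_DN243_c0_g1, each of these genes also had contigs outside the rule, and the 2 counts from low salinity and 1 of those from control were on such contigs.

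The DEAD-box group held the most contigs of the named groups, and the only members with more than 2 counts in low salinity or control. Its 39 contigs summed to 85 counts in low salinity, 2161 in low temperature and 116 in control. DDX17, a helicase that works as a splicing and transcription cofactor, had 711 counts in low temperature over 6 contigs and 0 in both others. Its most counted contigs were TRINITY_DN739_c0_g1_i11 with 333 and TRINITY_DN30017_c0_g1_i1 with 184. DDX39A, which acts in mRNA export, had 427 in low temperature and 0 in both others, with TRINITY_DN1166_c0_g1_i1 at 225. DDX3X, a helicase of translation, had 202 over 3 contigs, and DDX46, which acts in early spliceosome assembly, had 148 over 2, again against 0 in both others.

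Nucleolar proteins that make ribosomes were included through their names or texts. The helicases DDX10, DDX18, DDX24, DDX27, DDX47, DDX49 and DDX52 summed to 0 counts in low salinity, 277 in low temperature and 1 in control over 9 contigs. IMP3, IMP4, NOP58, NIFK and RBM28 summed to 1, 191 and 1 over 6 contigs. DDX4, the germ-line helicase Vasa, and DDX25, a helicase known from mouse testis, had 98 counts together in low temperature and 0 in both others. These groupings of names were made after the values were seen.

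Most of the members' counts outside the low-temperature library belonged to DDX11. DDX11 is a DNA helicase of sister chromatid cohesion and not an RNA helicase of the DEAD-box kind, and it entered through the letters of its name. The 5 contigs with this name summed to 83 counts in low salinity, 182 in low temperature and 102 in control. That was 93.3% of the members' counts in low salinity (exact binomial 95% interval 85.9% to 97.5%), 1.64% in low temperature (1.42% to 1.90%) and 81.0% in control (73.0% to 87.4%). Of these contigs, 4 had counts in all 3 libraries and 1 was counted in low temperature alone. All 5 had the same best protein match, from a comb jelly, and the COG class of DNA replication and repair. The 166 contigs with a best match in that comb jelly species, of which 55 had mobile-element text, summed to 12605 counts in low salinity, 2321 in low temperature and 32706 in control.

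The DDX11 contigs differed in which library held most of their unscaled counts. TRINITY_DN1005_c0_g1_i1 had 17 counts in low salinity, 43 in low temperature and 19 in control. TRINITY_DN1596_c0_g1_i1 had 11, 59 and 17 in the same order, and TRINITY_DN1596_c0_g1_i2 had 0, 21 and 0. All 3 had their most counts in low temperature. TRINITY_DN4288_c0_g1_i3 had 9, 20 and 50 counts, with the most in control, and TRINITY_DN4288_c0_g1_i5 had 46, 39 and 16, with the most in low salinity. These 2 contigs belong to 1 assembled gene, and each is also listed with a second protein described as a ribonuclease H protein. Under TMM scaling the low-temperature to control ratio of the 5 contigs together was 5.31 (exact 95% interval 4.14 to 6.83), but it was 1.37 with total counts and 0.961 with upper-quartile scaling, so its direction depends on the scaling.

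**Figure D3:**
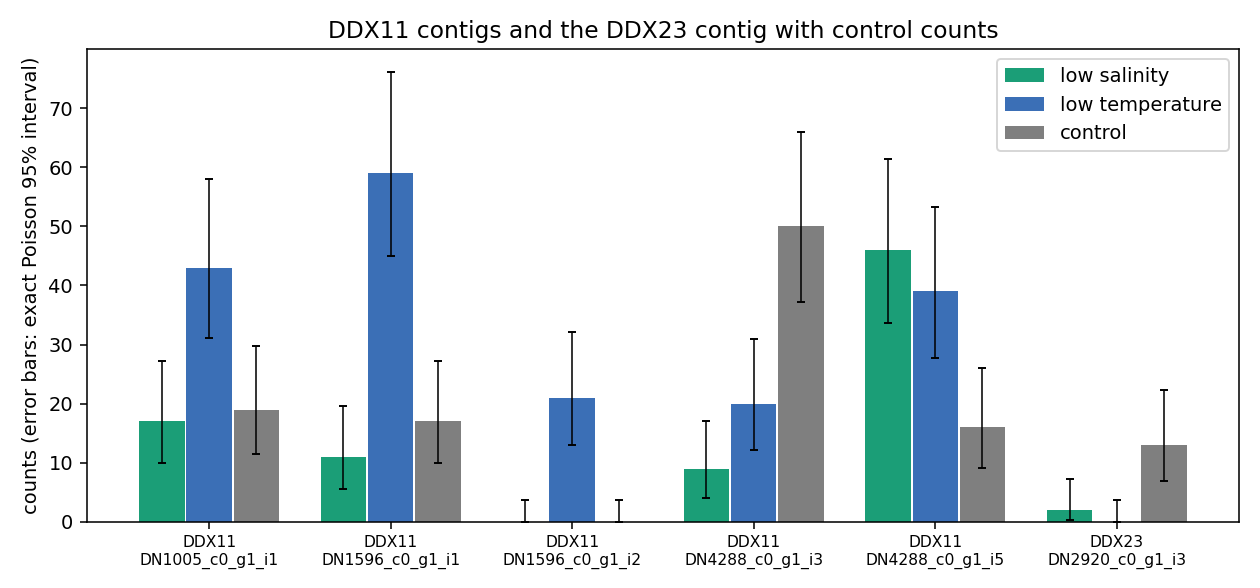
Counts of the 5 DDX11 contigs and of the DDX23 contig that has control counts, in the low-salinity, low-temperature and control libraries (bars, vertical axis in counts), with exact Poisson 95% intervals. In these unscaled counts the 2 contigs of DN4288_c0_g1 have their tallest bars in different libraries, at 50 in control and 46 in low salinity. The DDX23 contig is at 0 in low temperature.

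A single DDX23 contig was the only member without a count in low temperature. TRINITY_DN2920_c0_g1_i3, named after a U5 snRNP helicase, had 2 counts in low salinity, 0 in low temperature and 13 in control. No fold is given for it, since a bound against the floor of 3 counts lies above 1 under TMM scaling but not under median-of-ratios scaling. Its best protein match was from a nematode. The other contigs of its gene carried no name or description. Over all 3 contigs the gene had 70 counts in low salinity, 6 in low temperature and 177 in control. Under TMM scaling its low-temperature to control ratio was 0.101 (exact 95% interval 0.0365 to 0.224). The other 2 contigs named DDX23 come from other assembled genes and had 11 and 10 counts in low temperature and 0 in both others.

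The remaining 168 members summed to 4 counts in low salinity, 10887 in low temperature and 11 in control, and none of them had more than 1 count in low salinity or 2 in control. Under TMM scaling the low-temperature to control ratio of the sums was 2943 (exact 95% interval 1644 to 5897), and it was 762.2 with total counts. The DDX11 and DDX23 contigs were set aside after their control and low-salinity counts were seen. The ratio therefore describes a set chosen on the counts that enter it, and the interval does not cover that choice. The members with control counts were PRPF4B with 2 and PRPF31 (TRINITY_DN20122_c0_g1_i1), SF3A3 (TRINITY_DN21215_c0_g1_i4), SF1 (TRINITY_DN31024_c0_g1_i1), DDX49 (TRINITY_DN64528_c0_g1_i1), SNRNP25, TARDBP, SNRNP70, RBM28 and a nameless RNA recognition motif contig (TRINITY_DN43494_c0_g1_i4) with 1 each. In low salinity POLR2A (TRINITY_DN63121_c0_g1_i1), NIFK (TRINITY_DN8204_c0_g1_i1), SF3B1 and the same nameless contig had 1 each.

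Cooling to 10 °C was compared with the control at 26 °C. A filter on low counts (mean over the libraries of 10 or more) kept 8563 contigs and 108 of the 174 members. A 2-fold difference in either direction, or 1 on the log2 scale, was used as a size rule, which is not a test. By this rule 107 of the 108 members were higher in low temperature and 0 were lower, where 49.6% of all tested contigs were higher and 43% lower. Among the other tested annotated contigs without mobile-element text, 85.9% were higher and 12.5% lower. The 1 member that did not pass was the DDX11 contig TRINITY_DN4288_c0_g1_i3. The filter fixed most of the members' count, since 95 of the 108 were at 0 outside low temperature and passed it by that library alone. The median log2 ratio was 7.67 over the tested members and 0.83 over all tested contigs. With counts of 0 set to the floor of 3 these medians were 6.06 and 0.88, and it was 5.94 for the other tested annotated contigs without mobile-element text.

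The 98 tested members at 0 in control had lower bounds from 30.7-fold to 686.8-fold under TMM scaling. Under upper-quartile scaling, which shifts every log2 ratio of this comparison by -2.47, the lowest of these bounds was 5.56-fold. The filter sets how low these bounds can go, since the 98 had at most 1 count in low salinity and passed it through low temperature. The authors' deposited table for this comparison lists 119 of the members, 1 contig per assembled gene. All 119 have log2 fold changes above 0, from 3.77 for the DDX11 contig TRINITY_DN1005_c0_g1_i1 to 13.68. The 55 members not listed include the DDX23 contig at 0 in low temperature and both member contigs of the DDX11 gene TRINITY_DN4288_c0_g1. For YBX2 (TRINITY_DN203_c0_g1_i1) the authors' deposited table gives 13.23, which depends on how their model treats the 0 in control. The 13.68 is for the ZCCHC8 contig TRINITY_DN30265_c0_g1_i1, with 237 counts in low temperature against 693 for this YBX2 contig. The deposited values therefore do not rank the members by their counts.

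**Figure D4:**
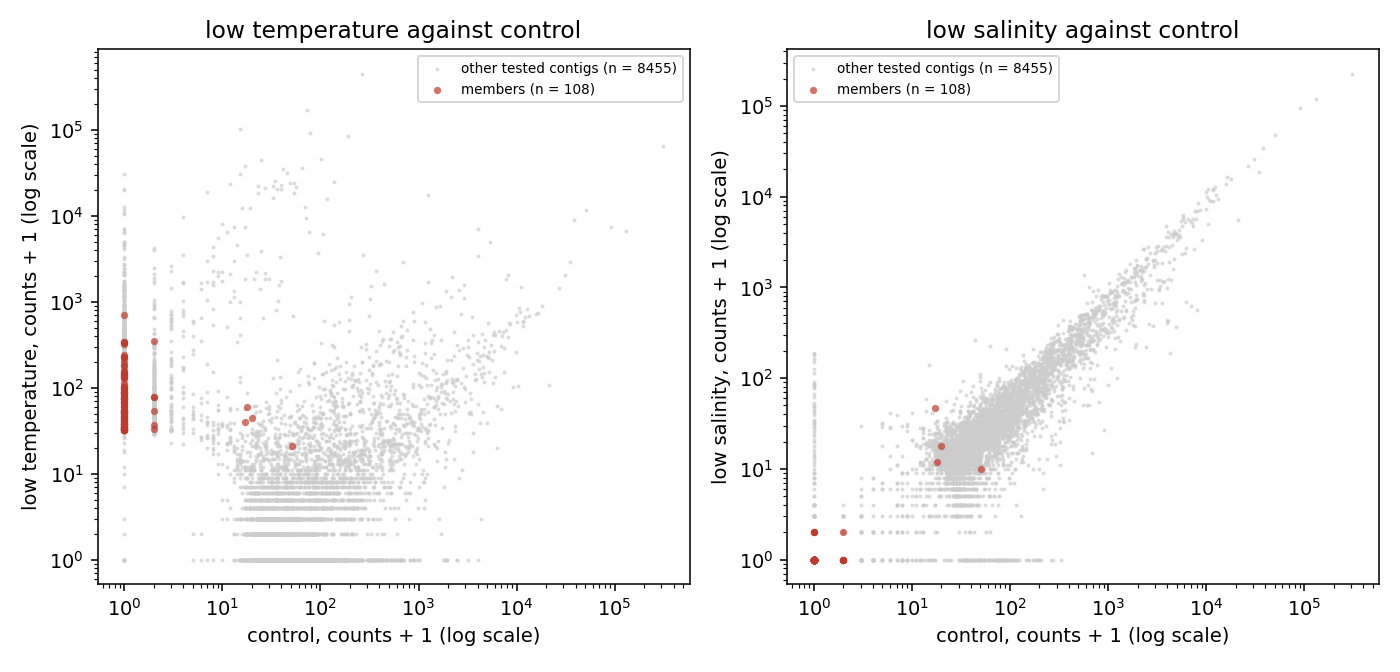
Counts plus 1 of the 8563 tested contigs (grey) with the 108 tested members (red), low temperature against control on the left and low salinity against control on the right, both axes logarithmic. On the left the members stand in columns at 0 or 1 control counts apart from 4 DDX11 contigs, and on the right all but those 4 lie in the corner at 0 or 1 counts in both libraries.

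For 8 PSU against the control at 35 PSU, little could be compared, since 95 of the 108 tested members were at 0 in both libraries. By the size rule 4 members were higher in low salinity and 6 were lower, where 5.62% of all tested contigs were higher and 13.3% lower. The members' shares, 3.70% higher and 5.56% lower, lie below this background. Of these 10 contigs, 8 rest on 1 count in 1 library against 0 in the other, and for them no fold is given. The other 2 are the paired contigs of the DDX11 gene TRINITY_DN4288_c0_g1.

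The DDX11 contig TRINITY_DN4288_c0_g1_i5 had 46 counts in low salinity against 16 in control. The TMM-scaled ratio was 5.79, with an exact 95% interval from 3.22 to 11.0. Its partner TRINITY_DN4288_c0_g1_i3 had 9 counts in low salinity against 50 in control, and the ratio was 0.362 (0.157 to 0.744). The contigs of this 1 gene thus differed in opposite directions, and both kept their direction and passed the rule under all 4 scalings run. The division of reads between contigs of 1 gene is estimated, and neither the intervals nor the scalings cover that uncertainty. The 5 contigs of the gene summed to 103 counts in low salinity against 82 in control, with a TMM-scaled ratio of 2.53 (1.87 to 3.42). The DDX11 contigs TRINITY_DN1005_c0_g1_i1 and TRINITY_DN1596_c0_g1_i1 had ratios of 1.80 (0.880 to 3.66) and 1.30 (0.552 to 2.95), both within counting error of no difference.

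Set against low temperature, low salinity again lacked the members. By the size rule 0 of the 108 tested members were higher in low salinity and 107 were lower, where 41.8% of all tested contigs were higher and 49.9% lower. Among the other tested annotated contigs without mobile-element text, 12.0% were higher and 86.2% lower. The filter fixed most of this count too, since 95 of the 108 passed it by low temperature alone and could only come out lower in low salinity. The YBX2 contig TRINITY_DN203_c0_g1_i1 had 0 counts in low salinity and 693 in low temperature, at least 341.1-fold lower in low salinity under TMM scaling. The bound was at least 119.1-fold with total counts and at least 53.3-fold with upper-quartile scaling. The DDX11 contig TRINITY_DN4288_c0_g1_i5, with 46 and 39 counts, was the 1 member that did not pass the size rule. Over the 5 DDX11 contigs the ratio of low salinity to low temperature was 0.309 (exact 95% interval 0.235 to 0.403) under TMM scaling, 0.885 with total counts and 1.98 with upper-quartile scaling. It uses the same low-temperature library as the comparison with control, so the results are not independent.

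Contigs with other names of RNA processing, outside the rule, were also counted mostly in low temperature. A list of 37 name beginnings, covering LSM proteins, DHX helicases, the exon junction complex, mRNA export, poly(A) binding, 3′ end formation and mRNA decay, found 92 contigs for 27 of them, of which 1 named PTBP2 and 1 named RBM28 belong to assembled genes that also hold members. They summed to 4 counts in low salinity, 5399 in low temperature and 4 in control. The 43 that were tested had at most 1 count in low salinity and 1 in control, so they passed the filter on low counts through low temperature and could only come out higher there. All 43 did, where 49.6% of all tested contigs and 85.9% of the other annotated ones without mobile-element text were higher in low temperature than in control. Between low salinity and control, 2 were higher in low salinity on 1 count each, and 0 were lower. Poly(A)-binding proteins, which coat the mRNA tail, had 1953 counts in low temperature over 7 contigs, with PABPC4 (TRINITY_DN337_c0_g1_i6) at 1030. MBNL2 (TRINITY_DN5799_c0_g1_i2), a muscleblind splicing regulator, had 179 and UPF1 (TRINITY_DN63162_c0_g1_i1), the helicase of nonsense-mediated decay, had 107. Each of these 3 contigs was at 0 in low salinity and in control.

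Annotation that the rule did not use described the members further. The spliceosome pathway of KEGG was given for 80 of the 174 contigs, including 13 of 14 PRPF contigs, all 10 SF3 contigs, all 4 SRSF contigs, 10 of 15 HNRNP contigs and 0 of the 4 Y-box contigs. The COG class of RNA processing and modification was given for 147. The best protein match was an arthropod for 131 contigs, a vertebrate for 14, another animal for 28 and a plant for 1. All 4 Y-box, all 15 HNRNP and all 4 SRSF contigs had an arthropod match, against 20 of 39 DDX contigs. Of the 14 with a vertebrate match, NOP58 (TRINITY_DN62428_c0_g1_i1, 53 counts in low temperature) and SNRNP200 (TRINITY_DN56155_c0_g1_i1, 28 counts) matched a cichlid fish, the family of the tilapia hosts, and both were at 0 in the other libraries. Whether any of these reads came from host tissue was not tested.

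Some members do not do what the heading of the group says. RTCB (TRINITY_DN29679_c0_g1_i1, 129 counts in low temperature) is the ligase of tRNA splicing, POLR2A is the large subunit of RNA polymerase II, and RpL5, taken because its description speaks of a ribonucleoprotein, is a ribosomal protein whose 2 member contigs had 95 counts in low temperature. The contig named ZCCHC8 (TRINITY_DN30265_c0_g1_i1), a nuclear RNA surveillance factor, had 237 counts in low temperature and is also listed as cct-1, a chaperonin subunit, so its counts cannot be assigned to either protein. In all, 20 members were listed with more than 1 description.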

How the data were processed

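RNA from whole Livoneca redmanii was sequenced in 3 libraries, on the Ion Torrent S5 platform per the labels' protocols. The tools listed in the submitters' processing notes are Salmon 1.10.2, fastp 0.23.2 and FastQC 0.11.9. For the assembler and the annotation tool nothing is given in the sources. The authors deposited estimated counts per assembled contig, held as whole numbers. The table's 33093 rows listed 31922 contigs, and each was used once. A second deposited table holds a normalized signal, 1 contig per gene. The authors' comparisons are deposited as log2 fold changes, and the p-values beside them were not used.

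Log2 ratios of CPM were computed in edgeR 4.0.16 under R 4.3.3 after TMM scaling, with a prior count of 0.5 and a mean count of at least 10. The low-salinity, low-temperature and control factors were 1.29, 0.449 and 1.73. No test was run, for lack of replicates. Intervals are exact (Poisson, conditional binomial and Clopper-Pearson), from SciPy 1.17.1, at 95%. Reads were PCR copies with no molecular identifiers, so intervals and floors cover counting error only. A floor is 3 counts per library, and a bound against it leaves out counting error in the other library. The ratio computation was run on simulated data in which few contigs were changed, in low salinity alone. That setting is unlike these libraries, so it does not check the scaling used here.

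Named members were the 3 with the most counts in each role, those with at least 10 counts in low salinity or control, and the 5 highest and 5 lowest ratios per comparison. Other names were chosen after their values were seen, and 1 member that the rule names is not reported here. Members and lists were chosen with earlier results of these data known. Alternatives were other scalings, filters, prior counts, gene sums and member sets.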

Additional observations from a re-analysis of the deposited data

How the results depend on the processing

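No paired analysis was possible because each condition had 1 library. Past the size rule were 107 members in each comparison with low temperature and 10 between low salinity and control. Both counts of 107 became 173 with no filter on low counts, and 15 with a minimum mean of 50, because fewer members were tested. These counts take both directions, and the 173 include the DDX23 contig at 0 in low temperature, which went the other way. Over all contigs, low temperature against control gave 29129 of 31873 with no filter and 2192 of 2408 with a minimum mean of 50. Low salinity against low temperature gave 27259 and 2201. Members chosen by name prefix alone gave 59 for each, where 92.5% and 91.7% of all tested contigs passed the rule in the same order. For low salinity against control the count became 1 with a minimum mean of 50, 2 with a prior count of 5, 6 by name prefix alone and 6 with the deposited normalized values. Over all contigs this comparison gave 461 of 2408 with a minimum mean of 50 and 871 of 8563 with a prior count of 5. The background for the name-prefix count was 1620 of 8563, and none is given here for the deposited normalized values. The members' share of counts in low salinity, low temperature and control was 0.0580%, 2.43% and 0.0512% of annotated counts without mobile-element text. By name prefix alone it was 0.219% of all low-temperature counts. Without mobile-element text among the members it was 0.00237% in low salinity and 0.00280% in control, and without the DDX11 and DDX23 contigs with counts in low salinity and control, a choice made after seeing the data, 0.000279% and 0.000513%. The low-salinity to low-temperature log2 ratios of the DDX11 contigs TRINITY_DN1005_c0_g1_i1 and TRINITY_DN4288_c0_g1_i3, -1.88 and -1.67, became 0.77 and 0.93 with upper-quartile scaling. Under the other alternatives run, the counts past the size rule stayed within 1.5 times. Depth limits low salinity and control, where 3 counts are the smallest share that can be bounded.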
